A study of Homo sapiens with 6 samples.

Results

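The genes described are the lysyl oxidases and the enzymes and chaperone that modify collagen before and during its cross-linking. They were chosen by name, and all 10 (LOX, LOXL1 to LOXL4, PLOD1 to PLOD3, SERPINH1 and BMP1) are among the 60676 genes of the expression table. RNA had been sequenced from NCI-H226, an established human line that the labels call mesothelioma of the pleura. One group of 3 libraries came from cells given the solvent DMSO, and the other group of 3 came from cells given 500 nM HC278, both for 24 h. The labels also spell the compound HC31278A and HC-31278, and the series title names it as a degrader of TEAD, a family of transcription factors that bind DNA and work with the co-activators YAP1 and WWTR1. All 6 libraries come from 1 cell line kept in DMEM with serum, and were made with a stranded kit for mRNA, and nothing in the labels says whether replicates were grown apart. The p-values below therefore reflect how much these libraries vary, a spread that may be technical.

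Collagen is modified in the endoplasmic reticulum before it is secreted. The PLOD enzymes hydroxylate lysines of the procollagen chain, and SERPINH1 (HSP47) holds the folded triple helix until export. Outside the cell BMP1 cuts off the C-terminal propeptide of procollagen and also activates the LOX proenzyme. Lysyl oxidases, which carry copper, then oxidise lysines and hydroxylysines to aldehydes that join neighbouring collagen or elastin molecules. These enzymes stiffen the matrix, and several of them are known to respond to hypoxia and to growth factors.

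The upstream sequences of LOX, LOXL4 and LOXL3 are shown. The first pair are the lysyl oxidases whose transcripts changed. LOXL3 is the only one of the 8 genes searched with the core letters bound by TEAD in a window. Each runs 5′ to 3′ on the gene's strand over the 250 bases before a RefSeq start (GRCh38.p14), and capitals mark either GGAATG, the TEAD core, or ACGTG, the core bound by hypoxia-inducible factors, on either strand.
LOX: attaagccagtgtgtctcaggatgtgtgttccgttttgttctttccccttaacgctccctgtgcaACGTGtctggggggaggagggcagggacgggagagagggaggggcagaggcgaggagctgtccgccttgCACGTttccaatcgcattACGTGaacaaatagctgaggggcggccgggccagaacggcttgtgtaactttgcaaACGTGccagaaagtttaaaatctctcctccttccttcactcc
LOXL4: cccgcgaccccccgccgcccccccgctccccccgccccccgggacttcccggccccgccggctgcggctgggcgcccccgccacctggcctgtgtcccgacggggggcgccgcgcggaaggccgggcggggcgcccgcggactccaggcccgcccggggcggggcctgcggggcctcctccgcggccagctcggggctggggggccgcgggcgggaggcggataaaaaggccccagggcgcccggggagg
LOXL3: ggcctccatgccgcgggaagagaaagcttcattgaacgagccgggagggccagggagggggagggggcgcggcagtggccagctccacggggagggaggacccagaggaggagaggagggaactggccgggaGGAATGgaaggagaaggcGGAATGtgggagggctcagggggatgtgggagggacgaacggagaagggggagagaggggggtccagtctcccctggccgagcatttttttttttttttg
The LOX window is chr5:122078260-122078509 on the minus strand, and the gene model of the table begins inside it, at 122078360. The LOXL4 window is chr10:98268195-98268444 and the LOXL3 window chr2:74553943-74554192, both on the minus strand. The LOXL3 window lies wholly inside the gene of the table, and its RefSeq start is 1748 bases past the table's 5′ end of the gene. LOX has 4 copies of ACGTG or its reverse complement CACGT, which begin 185, 116, 98 and 42 bases before the start, and LOXL3 has 2 copies of GGAATG, 118 and 100 bases before it. The LOXL4 window holds neither core. RefSeq windows of 8 of the 10 genes were searched, 12 windows in all. LOXL2 and BMP1 were left out of this search, so it says nothing about their upstream sequences. GGAATG or CATTCC was in 1 of these 12 windows, against 11.9% of 35116 windows of all genes. ACGTG or CACGT was in 5 of the 12 (all 3 of LOX, 1 of PLOD2 and 1 of SERPINH1), against 18.5%, and the last 2 windows of LOX overlap each other. Of these 5, all but the first LOX window lie wholly inside the gene of the table. These matches are letters in a short window, and binding was not measured.

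Sequencing was even, with 30486316 to 33181814 counts per library, and a floor of 3 counts corresponds to 0.0904 to 0.0984 CPM before scaling. CPM here is the gene's count relative to its library's TMM-scaled total. HC278 replicate 6 stood apart from the other treated libraries. Its median absolute log2 distance from the mean of its group's other libraries was 0.552, against 0.391 and 0.200 for HC278 replicates 1 and 2 and 0.103 to 0.234 for the DMSO libraries. Over 15510 genes its deviation had a Spearman correlation of 0.523 with gene model length, a description across genes that are not independent. Fold changes of the 10 genes are therefore given with and without this library. Of 6 mesothelial markers, all were measurable, and their summed level was 189 to 238 CPM with DMSO and 289 to 422 CPM with HC278. CALB2, UPK3B and ITLN1 rose and UPK1B fell, while MSLN and WT1 did not pass the test. The marker calls, those of CD68, CD14 and NAPSA included, were each lost without DMSO replicate 1, 2 or 3, and held without HC278 replicate 6. All but that of UPK1B were also lost without HC278 replicate 2. Those of CALB2, ITLN1, CD14 and NAPSA were lost without HC278 replicate 1, and those of CD14 and NAPSA with no filter. Without HC278 replicate 6 MSLN was also called higher (log2 0.80) and WT1 lower (log2 -0.45), in a fit that called 40.6% of all tested genes. The 4 fibroblast markers summed to at most 0.205 CPM, with LUM and DPT at 0 in every library, and the immune and endothelial list had CD3E at 0 and summed to 38.0 to 39.0 CPM with DMSO and 62.7 to 78.2 CPM with HC278, nearly all from CD68, which rose, as did CD14. Of 6 squamous and lung epithelial markers, which summed to at most 0.666 CPM, NAPSA rose from almost no counts and is overlapped by the far more abundant NR1H2. The part of these shifts in the results below was not tested.

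Under HC278 the transcript of LOX fell and those of BMP1 and LOXL4 rose, while the remaining 7 genes did not pass the test. A gene counts as changed where edgeR's quasi-likelihood test, adjusted by Benjamini and Hochberg's method across the 15510 tested genes, gave a p under 0.05. All 10 genes passed the filter on low counts. The share called over all tested genes was 10.8%, with 5.40% higher and 5.38% lower, and in 34.6% of them the DMSO and HC278 values were fully separated, as they were for LOX, LOXL4 and BMP1. RNA came from whole cultures, in which fewer cells that express a gene and less of its RNA per cell cannot be told apart. The median log2 fold change of the 10 genes was 0.02 and that of all tested genes 0.05. With all 6 libraries 1672 genes were called. The number was 164, 0 and 246 without DMSO replicates 1, 2 and 3, and 819 and 252 without HC278 replicates 1 and 2. Calls lost in these fits, here and below, were therefore common among all genes and not particular to the gene named.

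**Figure D1:**
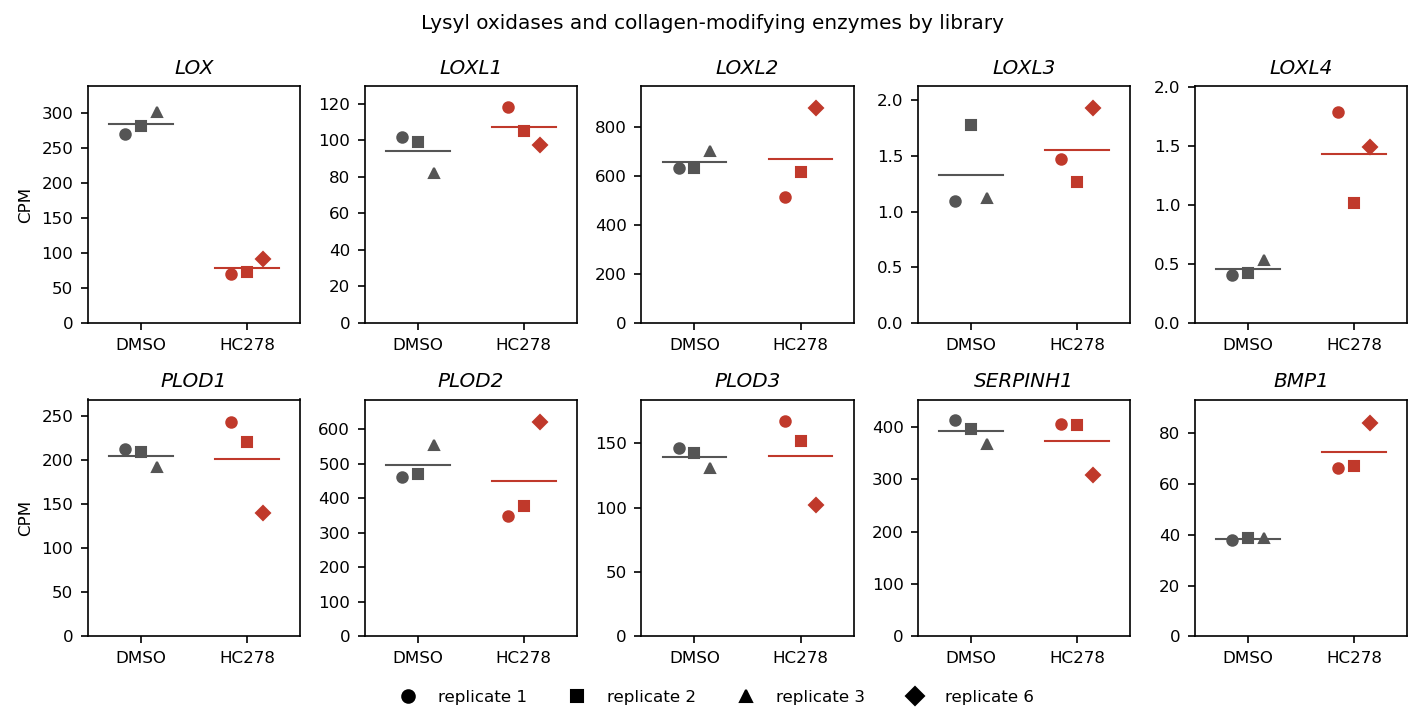
Level of each of the 10 genes in CPM (linear axis from 0) in the 3 DMSO and 3 HC278 libraries, with replicates as marker shapes and the group mean as a line. LOX is lower and LOXL4 and BMP1 are higher in every HC278 library, and for PLOD2 and LOXL2 HC278 replicate 6 lies above all others.

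LOX encodes the founding lysyl oxidase, which cross-links fibrillar collagen and elastin. Its gene (ENSG00000113083) occupies 122063195 to 122078360 of chromosome 5 in hg38, minus strand. Its level was 271, 282.5 and 302 CPM in DMSO replicates 1, 2 and 3, and 69.9, 73.0 and 92.1 CPM in HC278 replicates 1, 2 and 6. The groups were far apart, and the highest treated library was HC278 replicate 6. The log2 fold change was -1.86 (SE 0.15, edgeR adjusted p = 0.00393, lower in 3 of 3 treated libraries), a 3.64-fold lower level, and it ranked 71 from the lowest of 15510 genes. Without HC278 replicate 6 it was -2.002 (edgeR adjusted p = 0.000568), and without DMSO replicate 2 the size held but the call was lost (log2 -1.88, adjusted p = 0.0502). SRFBP1, transcribed from the other strand, shares 138 exon bases with LOX in GENCODE and has 7.12% of its counts.

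LOXL2 encodes a secreted amine oxidase with scavenger receptor domains that acts on collagen IV among other substrates. Per length it was the most abundant of the family in every library (352 ± 48.8 TPM with DMSO, SD, n = 3). In CPM it was at 631, 629.6 and 702 with DMSO. HC278 replicates 1 and 2 had 514 and 613 CPM, below every DMSO library, and HC278 replicate 6 had 876 CPM, above them all. The log2 fold change was 0.03 (95% interval -0.49 to 0.55, edgeR adjusted p = 0.953), and without HC278 replicate 6 it was -0.22 (adjusted p = 0.159). ENTPD4, transcribed from the same strand, shares 120 exon bases with LOXL2 in GENCODE and has 9.16% as many counts. LOXL1, which is needed for elastic fibres in mice, had 102, 99.1 and 82.2 CPM with DMSO and 118, 105 and 97.5 CPM with HC278. The groups overlapped through HC278 replicate 6, and the gene did not pass (log2 0.18, 95% interval -0.15 to 0.51, adjusted p = 0.465), nor did it without HC278 replicate 6 (log2 0.24, adjusted p = 0.142). Its antisense partner LOXL1-AS1, which shares 335 exon bases and has 57.4% of its counts, fell (log2 -0.57, adjusted p = 0.0291), a call that held in 1 of 6 fits with a library left out, the one without HC278 replicate 6. That call was also lost with library size alone as the scaling and with no filter (edgeR adjusted p = 0.0948 and 0.0550). The strand setting of the counting is not given in the sources used here. If strand was not used, reads of such partners cannot be told apart, so the LOXL1 value is uncertain.

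LOXL4, a relative of LOXL2, rested on few reads, with 13, 14 and 18 counts with DMSO and 51, 32 and 51 counts with HC278. Its gene (ENSG00000138131) occupies 98247690 to 98268194 of chromosome 10 in hg38, minus strand. In CPM it was 0.407, 0.423 and 0.532 against 1.79, 1.01 and 1.49. All treated libraries were above all controls, at a level far below those of LOX, LOXL1 and LOXL2. The log2 fold change was 1.65 (SE 0.29, edgeR adjusted p = 0.0219, higher in 3 of 3 treated libraries). The call was kept without HC278 replicate 6 (log2 1.61, adjusted p = 0.0127) and lost without DMSO replicate 1, 2 or 3 (adjusted p = 0.118, 0.122 and 0.0904) or HC278 replicate 1 or 2 (0.0625 and 0.0532), where the log2 fold change was 1.45 to 1.84. LOXL3, known in mice for its role in the palate and spine, was also low, with 35, 59 and 38 counts with DMSO and 42, 40 and 66 with HC278. Its groups overlapped (log2 0.22, 95% interval -0.48 to 0.92, adjusted p = 0.690), and without HC278 replicate 6 it was at 0.033 (adjusted p = 0.935). HTRA2 and DOK1 overlap LOXL3 on the opposite strand with 9574 and 3885 counts over all libraries, against 280 for LOXL3, so its level is uncertain.

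Per length, in the TPM values deposited by the authors, LOX made up 26.7%, 27.7% and 28.0% of the summed lysyl oxidase transcripts in the DMSO libraries and 9.56%, 9.06% and 8.71% in the HC278 libraries. The treated share was narrow in spite of HC278 replicate 6, whose summed family level was 760 TPM against 330 and 410 TPM in HC278 replicates 1 and 2. The share of LOXL2 was 57.8%, 57.2% and 60.2% in the DMSO libraries and 65.1%, 70.6% and 76.8% in the HC278 libraries, while its own level did not pass the test. LOXL3 and LOXL4 together were at most 0.624% of the family in any library. No test was made of these shares, since the genes were chosen with results known.

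**Figure D2:**
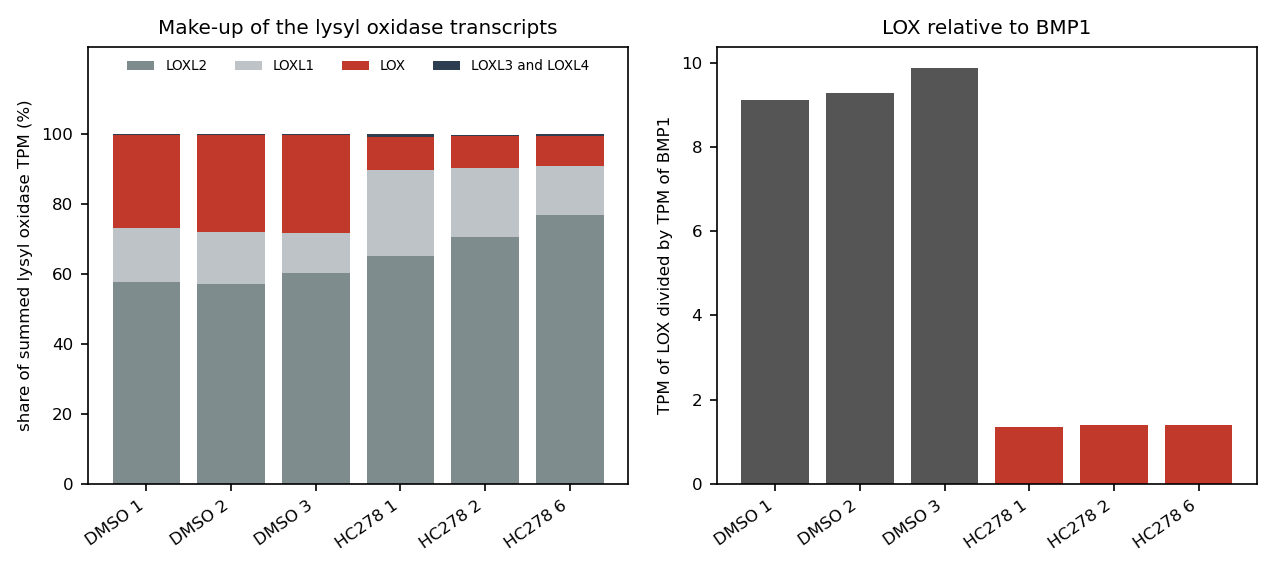
Left, share of the summed TPM of the 5 lysyl oxidase genes held by each, in percent per library. Right, TPM of LOX divided by TPM of BMP1 per library. The LOX share is 26.7% to 28.0% with DMSO and 8.71% to 9.56% with HC278, and the LOX to BMP1 ratio goes from 9.12 to 9.88 down to 1.34 to 1.39.

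BMP1 encodes the procollagen C-proteinase that also removes the LOX propeptide. Its gene (ENSG00000168487) occupies 22165140 to 22212326 of chromosome 8 in hg38, plus strand. Its level was 37.9, 38.8 and 39.0 CPM with DMSO, and 66.4, 67.0 and 84.1 CPM with HC278. Every treated library was above every control, and HC278 replicate 6 was highest. The log2 fold change was 0.91 (SE 0.13, edgeR adjusted p = 0.0119, higher in 3 of 3 treated libraries), a 1.88-fold rise. Without HC278 replicate 6 it was 0.79 (adjusted p = 0.00143). The call was lost without DMSO replicate 1, 2 or 3 (adjusted p = 0.0829, 0.0900 and 0.0767) or HC278 replicate 2 (0.0552), where the log2 fold change was 0.89 to 0.96. Those fits called 164, 0, 246 and 252 genes, against 1672 with all 6 libraries. With LOX and BMP1 changed in opposite directions, the ratio of their TPM was 9.12, 9.27 and 9.88 in the DMSO libraries and 1.34, 1.39 and 1.39 in the HC278 libraries. That ratio differed little within each group, HC278 replicate 6 included.

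PLOD2 encodes the lysyl hydroxylase of the collagen telopeptides, whose product leads to stable cross-links. Its gene (ENSG00000152952) occupies 146069440 to 146163653 of chromosome 3, minus strand. It had 462, 471 and 553 CPM with DMSO, 349 and 378 CPM in HC278 replicates 1 and 2, and 622 CPM in HC278 replicate 6. The first pair of treated libraries lay below all controls and the last above all of them. With all 6 libraries it did not pass (log2 -0.14, 95% interval -0.73 to 0.46, edgeR adjusted p = 0.779), whereas without HC278 replicate 6 it was called lower (log2 -0.45, adjusted p = 0.0233). In that fit 40.6% of all tested genes were called, 19.8% higher and 20.7% lower, so a call there is common. Without DMSO replicate 3 as well, PLOD2 was again called lower (log2 -0.36, adjusted p = 0.0157), and 40.4% of genes were called, 19.5% higher and 20.9% lower. PLOD1, which hydroxylates lysines of the triple helix, had 213, 209 and 192 CPM with DMSO and 244, 220 and 139.7 CPM with HC278. PLOD3, which also glycosylates hydroxylysine, had 146, 142 and 131 CPM with DMSO and 167, 152 and 102 CPM with HC278. For both, HC278 replicates 1 and 2 were above all DMSO libraries and HC278 replicate 6 below, the reverse of PLOD2. The share of PLOD2 in the summed TPM of the 3 PLOD genes was 47.8%, 48.8% and 54.9% with DMSO and 37.7%, 42.0% and 64.7% with HC278, so HC278 replicate 6 was highest there too. Neither PLOD1 nor PLOD3 passed (PLOD1 log2 -0.03, 95% interval -0.55 to 0.50, edgeR adjusted p = 0.960, and PLOD3 log2 0.01, 95% interval -0.47 to 0.49, adjusted p = 0.986), and without HC278 replicate 6 they were at 0.18 and 0.19 and did not pass either. PLOD3 is overlapped by ZNHIT1, which is transcribed from the other strand and has 62.7% as many counts.

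SERPINH1, the collagen chaperone, had 414, 397 and 368 CPM with DMSO and 406, 403 and 309 CPM with HC278. The groups overlapped, and its log2 fold change of -0.08 had a 95% interval of -0.44 to 0.29 (edgeR adjusted p = 0.804). It was at 0.04 without HC278 replicate 6 (adjusted p = 0.746).

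**Figure D3:**
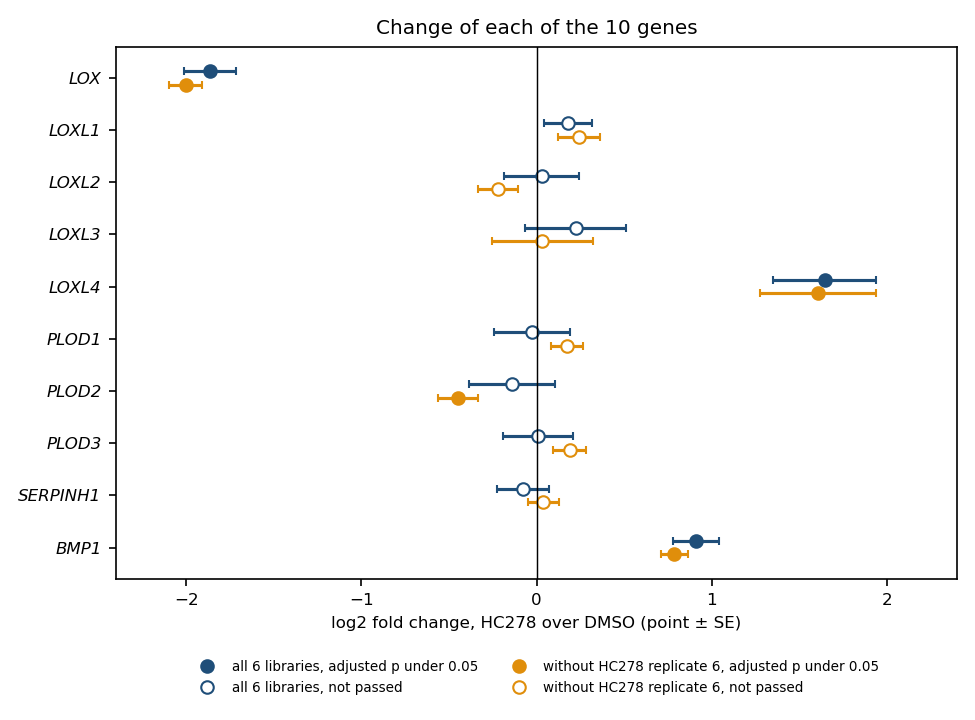
Log2 fold change of HC278 over DMSO for each of the 10 genes, with all 6 libraries and without HC278 replicate 6, as point ± SE, filled where the edgeR adjusted p was under 0.05. LOX (-1.86), LOXL4 (1.65) and BMP1 (0.91) are filled in both fits and PLOD2 (-0.45) only without that library.

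In the DMSO libraries the order of levels per length was LOXL2 at 352 ± 48.8 TPM (SD, n = 3), PLOD2 at 208 ± 37.3, SERPINH1 at 200.2 ± 3.52, LOX at 166 ± 21.6, PLOD1 at 123 ± 2.43, LOXL1 at 82.8 ± 3.58, PLOD3 at 78.8 ± 1.14 and BMP1 at 17.5 ± 1.51 TPM. LOXL3 and LOXL4 followed at 0.943 ± 0.255 and 0.408 ± 0.0931 TPM. PLOD2 and SERPINH1, and LOXL1 and PLOD3, overlapped in their ranges and have no firm order. With HC278 LOX, at 45.0 ± 18.6 TPM, stood below PLOD3 (73.8 ± 1.93 TPM) and next to BMP1 (32.6 ± 13.01 TPM). The ranges of LOX and BMP1 overlapped, but LOX was above BMP1 within every HC278 library. The genes of fibrillar collagens and elastin, on which LOX acts, ranged from a level between those of PLOD3 and BMP1 (COL5A1) down to almost no counts. COL1A1 was at 1.37 TPM with DMSO, COL5A1 at 30.6 TPM, and COL1A2, COL3A1 and elastin (ELN) had at most 10, 4 and 3 counts in any library.

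Over 5 lists of other genes of the pathway, 4 of 46 tested genes were called (8.70%), near the 10.8% of all tested genes. Without HC278 replicate 6 it was 20 of 46 (43.5%), near the 40.6% of all tested genes, so neither count sets the pathway apart. Of 10 genes of prolyl hydroxylation, which stabilises the triple helix, 0 passed in edgeR, DESeq2 or limma-voom, and 0 had an unadjusted p under 0.05 in edgeR. Without HC278 replicate 6, 3 of them (P4HA2, P3H4 and CRTAP) were called higher. Of 11 genes of collagen glycosylation, folding and export, COLGALT2, a galactosyltransferase acting on hydroxylysine, was at 2.73 ± 0.0802 CPM with DMSO and 1.20 ± 0.0360 CPM with HC278 (SD, n = 3). It fell (log2 -1.19, SE 0.16, edgeR adjusted p = 0.0110), and 0 of the 11 rose. It was at -1.21 without HC278 replicate 6 (adjusted p = 0.00430), and the call was lost without DMSO replicate 1, 2 or 3 or HC278 replicate 2 (adjusted p = 0.0667 to 0.0798). Its paralogue COLGALT1 was at 324 ± 7.56 CPM with DMSO and 316 ± 12.3 CPM with HC278 and did not pass. Among 7 tested genes of procollagen processing, PCOLCE, an enhancer of the activity of BMP1, was at 0.902 ± 0.155 CPM with DMSO and 2.33 ± 0.327 CPM with HC278. It rose (log2 1.37, SE 0.22, edgeR adjusted p = 0.0171), and 0 of the 7 fell. It was at 1.44 without HC278 replicate 6 (adjusted p = 0.00580), and the call was lost without any other 1 of the libraries (adjusted p = 0.0556 to 0.108). BMP1's relatives TLL1 and TLL2 were too low to be tested, and FURIN, which activates BMP1, was at 76.2 ± 4.46 and 66.2 ± 0.607 CPM and did not pass (log2 -0.20, adjusted p = 0.265).

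Of 11 fibrillar collagen genes 6 were tested and 0 passed in edgeR or limma-voom, 1 passed in DESeq2, and 1 had an unadjusted p under 0.05 in edgeR. COL5A1, the most abundant of them, was at 106 ± 5.99 CPM with DMSO and 118 ± 45.4 CPM with HC278. Of 12 tested genes of elastic fibres, 2 rose and 0 fell. LTBP3 was at 68.7 ± 1.59 CPM with DMSO and 135 ± 29.2 CPM with HC278 (log2 0.97, SE 0.17, edgeR adjusted p = 0.0204). LTBP4 was at 13.6 ± 0.418 and 18.6 ± 0.226 CPM in the same order (log2 0.45, SE 0.10, adjusted p = 0.0422). Both encode proteins that bind latent TGF-beta. They were at 0.78 and 0.45 without HC278 replicate 6 (adjusted p = 0.00146 and 0.0121). Both calls were lost with library size alone as the scaling, and without DMSO replicate 1, 2 or 3 or HC278 replicate 2 (adjusted p = 0.0707 to 0.115 for LTBP3). The call of LTBP4 was also lost without HC278 replicate 1, with no filter and with the length trend taken out. The list medians were 0.11 for prolyl hydroxylation, 0.13 for glycosylation, folding and export, -0.09 for procollagen processing, 0.30 for fibrillar collagens and 0.12 for elastic fibres, against 0.05 over all tested genes. Without HC278 replicate 6 the counts called higher and lower were 2 and 3 for glycosylation, folding and export, 2 and 2 for procollagen processing, 1 and 1 for fibrillar collagens and 4 and 2 for elastic fibres.

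**Figure D4:**
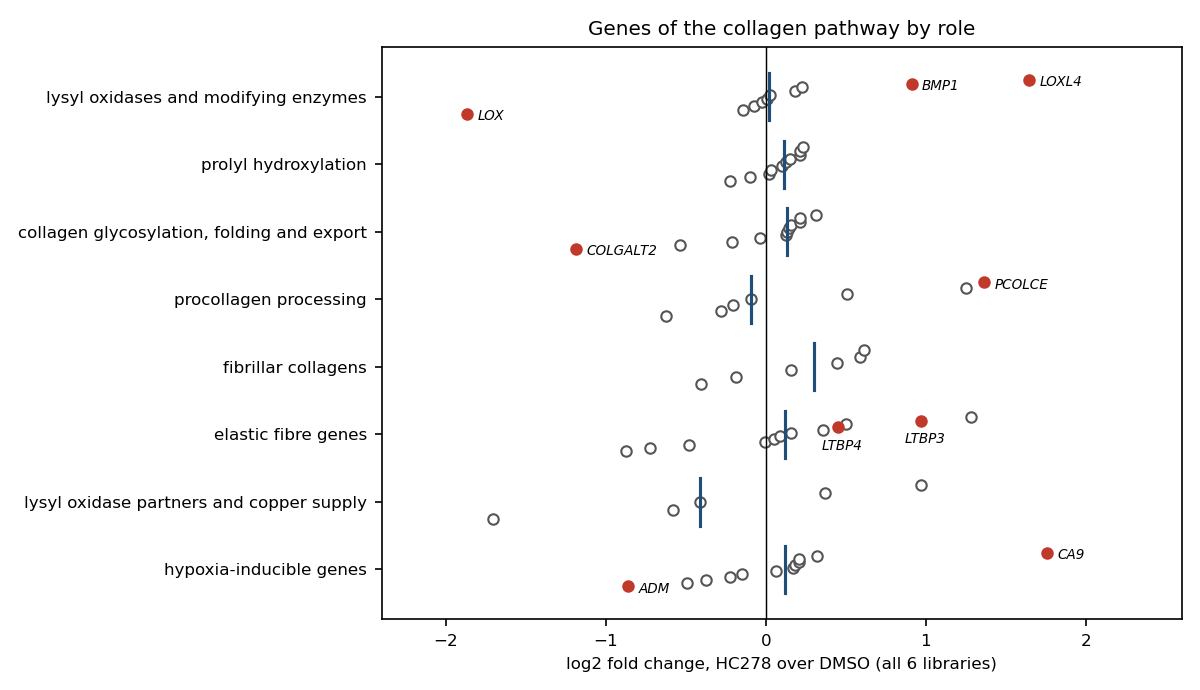
Log2 fold change of HC278 over DMSO with all 6 libraries for the tested genes of 8 lists grouped by role. Filled and named points had an edgeR adjusted p under 0.05, open points did not, and the vertical bar is the list median. LOX at -1.86 lies lowest of all genes shown, and CA9 and LOXL4 lie highest.

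The genes whose levels across the 6 libraries were most like those of LOX were OXTR, UAP1, ANKRD1, MYBL1 and RFC3. Likeness was the root mean square difference of log2 CPM centred on each gene's mean, ranked among 9247 genes whose mean reached 10 CPM. It was 0.0656 for OXTR and 0.112 to 0.130 for the other 4. OXTR, the oxytocin receptor gene, had 126, 130 and 130 CPM with DMSO and 31.1, 29.5 and 40.9 CPM with HC278. ANKRD1, a standard target of YAP and TEAD, ranked 3 (312 ± 10.6 CPM with DMSO and 78.2 ± 7.02 CPM with HC278). CCN2 and CCN1, also targets of YAP and TEAD, ranked 209 and 747, and PLOD2 ranked 2769. Of these 3 reference targets, ANKRD1 and CCN2 fell and CCN1 did not pass (log2 -0.66, edgeR adjusted p = 0.0589). The call of ANKRD1 was lost without DMSO replicate 2 (adjusted p = 0.0502), and that of CCN2 without DMSO replicate 1, 2 or 3 or HC278 replicate 1 (0.0697 to 0.108). All these profiles come from the same 6 libraries in 2 groups.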

How the data were processed

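RNA of 6 NCI-H226 libraries (3 given DMSO, 3 given HC278) was sequenced after extraction with trizol and a stranded mRNA kit, per the labels' protocols. The authors deposited 1 table of raw counts per gene, with RPKM and TPM (both per length) and a signal column headed CPM, scaled to an adjusted library size, per the file headers and values. The build is hg38, per the submitters' processing notes. Neither aligner nor counter, annotation or strand setting is given in the sources used here. The RPKM and deposited CPM columns entered no result.

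Counts were tested in edgeR 4.0.16 (R 4.3.3) with filterByExpr (minimum count 10), TMM scaling and the quasi-likelihood F-test on group alone, with Benjamini-Hochberg adjustment. Each SE was obtained by dividing the size of the log2 fold change by the root of F. The test was checked on simulated counts. These held no library that stood apart and no shift with gene length, so the check does not cover such features of the data. Alternatives were DESeq2 1.42.0, limma-voom (limma 3.58.1), other scaling and filters, a length trend taken out, a replicate block, and leaving out libraries. Levels between genes used the deposited TPM, and upstream sequences came from RefSeq (GRCh38.p14). Within each list, genes named are up to 4 called ones with the smallest adjusted p. Others were named after their values were seen (COLGALT1, FURIN, COL5A1, COL1A1, COL1A2, COL3A1, ELN, the genes called without HC278 replicate 6, and THBS1 and SLC31A1). The members and lists were chosen with earlier results of these data known. Counting floors cover counting error only.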

Additional observations from a re-analysis of the deposited data

How the results depend on the processing

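With all 6 libraries 1672 genes were called. The number was 2818 in DESeq2, 2690 with the length trend taken out and 6322 without DMSO replicate 3 and HC278 replicate 6 together. Leaving out 1 library gave 0 to 6413 calls. It gave 164, 0 and 246 without DMSO replicates 1, 2 and 3, and 819, 252 and 6413 without HC278 replicates 1, 2 and 6. At 0 calls, 2864 genes had an unadjusted p under 0.05 in edgeR. With 1 library left out, the count of the 10 genes called higher ranged from 0 to 2 and that called lower from 0 to 2. Without DMSO replicate 3 and HC278 replicate 6 together 2 were lower. LOX, LOXL4 and BMP1 kept their direction under every alternative run. Of the 7 genes that did not pass, LOXL1 kept its sign in all 15 alternatives and the other 6 changed sign in at least 1. LOXL2 was at -0.0096 in limma-voom, -0.0091 with no filter and -0.16 without both libraries, and ranged from -0.219 to 0.181 with 1 library left out. LOXL3 was at -0.076 without both libraries. PLOD1 was at 0.14 without both libraries and 0.0030 with the length trend taken out, and ranged from -0.190 to 0.176. PLOD2 ranged from -0.450 to 0.0080. PLOD3 was at -0.029 with library size alone, -0.019 in limma-voom and -0.027 with no filter, and ranged from -0.141 to 0.189. SERPINH1 ranged from -0.146 to 0.0385. The cause was not tested. Depth limits LOXL3 and LOXL4 most.

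Replicate numbers 1 and 2 occur in both groups, but the labels do not say that they pair samples. Deviations of same-numbered libraries correlated at 0.517 (number 1) and 0.183 (number 2), and crossed ones at 0.327 and 0.384. With the replicate block 8172 of 15510 tested genes were called, so a call there is common. Of the 10 genes 2 were higher, LOXL4 and BMP1, and 2 were lower, LOX and PLOD2. DMSO replicate 3 and HC278 replicate 6 have no partner in the block and add nothing to its fold changes. The block is therefore not independent of the fit without both of these libraries, and PLOD2 was at -0.36 in each. The block gave LOXL2 at -0.17, LOXL3 at -0.058 and PLOD1 at 0.14.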

Other observations

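Of 12 hypoxia-inducible genes, 1 rose and 1 fell, against 5.40% and 5.38% of all tested genes, so the counts do not set the list apart. CA9, a carbonic anhydrase and standard hypoxia marker, was at 0.972 ± 0.0891 CPM with DMSO and 3.30 ± 0.888 CPM with HC278 (SD, n = 3; log2 1.76, SE 0.26, edgeR adjusted p = 0.0130). ARHGEF39, transcribed from the other strand at the same place, has 138% as many counts as CA9, so its value is uncertain. CA9 was at 1.94 without HC278 replicate 6 (edgeR adjusted p = 0.00144), and its call was lost without DMSO replicate 1, 2 or 3 or HC278 replicate 2 (adjusted p = 0.0694 to 0.0895). ADM, the gene of the peptide adrenomedullin, was at 113 ± 11.8 and 62.2 ± 13.1 CPM and fell (log2 -0.86, SE 0.19, edgeR adjusted p = 0.0392). ADM was at -0.70 without HC278 replicate 6 (edgeR adjusted p = 0.00585), and its call was lost without any other 1 of the libraries (adjusted p = 0.0619 to 0.161). The median log2 fold change of the 12 genes was 0.12.

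Of 7 genes for partners of lysyl oxidases or for copper supply, 5 were tested and 0 passed in edgeR, where 2 had an unadjusted p under 0.05. In DESeq2 2 were lower and in limma-voom 1 was. THBS1, a matrix glycoprotein gene, was at 30.4 ± 5.87 CPM with DMSO and 9.34 ± 5.95 CPM with HC278 (log2 -1.70, SE 0.45, edgeR adjusted p = 0.0654), and without HC278 replicate 6 it was called lower (log2 -2.35, adjusted p = 0.00146). SLC31A1, the main copper importer, was at 49.3 ± 3.09 and 37.2 ± 2.70 CPM (log2 -0.41, SE 0.11, edgeR adjusted p = 0.0722). Without HC278 replicate 6 it too was called lower (log2 -0.47, edgeR adjusted p = 0.0113). In that fit 3 of the 5 were lower, FN1 included, and 1, ATOX1, was higher. A call there is common, since 40.6% of all tested genes were called.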
